A study of Rattus norvegicus with 138 samples.

Results

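The genes described here encode channels that carry current near the resting potential of a neuron. They are the two-pore potassium (K2P) channel genes Kcnk1, Kcnk2, Kcnk3, Kcnk9 and Kcnk10 and the hyperpolarization-activated, cyclic nucleotide-gated (HCN) channel genes Hcn2, Hcn3 and Hcn4. They were chosen by name, as 8 of the 32883 genes in each table, and all 8 passed the filter on low expression in every region.

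RNA was sequenced from 3 regions of the lower brainstem that regulate blood pressure. These are the nucleus of the solitary tract (NTS), which receives the afferents of the arterial baroreceptors, and the caudal and rostral ventrolateral medulla (CVLM and RVLM), of which the last holds neurons that drive sympathetic outflow. Tissue came from 46 female rats, 18 Wistar-Kyoto controls (WKY/NHsd) and 28 spontaneously hypertensive rats (SHR/NHsd), an inbred model in which blood pressure rises with age without surgery or drug. There were 5 WKY rats and 5 SHRs aged 8 wk, 4 and 5 aged 10 wk, and 3 and 6 at each of 12, 16 and 24 wk. Each rat gave tissue at its own age only, and the bilateral 1-mm punches of a region from 1 rat made up 1 library. All rats were housed singly and decapitated under isoflurane, and no treatment other than strain and age is given. For 2 CVLM libraries, replicate 5 of each strain at 8 wk, the labels disagree on age, and they were kept at 8 wk.

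K2P channels are open at rest and carry the potassium leak that holds a neuron's membrane negative. Closing them depolarizes the cell, and acid, transmitters, lipids or stretch close or open particular members. HCN channels open when the membrane is hyperpolarized and pass an inward cation current, called Ih, which cyclic AMP shifts and which sets resting potential, input resistance and pacing. In the ventrolateral medulla and in motor neurons of the brainstem, acid-sensitive K2P channels of the TASK type are among those studied for responses to pH and transmitters.

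Depth, as the sum of expected counts, lay between 5904570 and 17889406 (median 10143018). Levels are given as CPM, the counts of a gene scaled to a common library size, with factors from the trimmed mean of M values (TMM) over the libraries of all regions together, and levels of different genes are not compared, since they were not divided by transcript length. Lowest counts among the members were 4 for Kcnk10, 5 for Hcn2 and 8 for Hcn4, all in ventrolateral libraries, so that single values of these genes carry the most counting error. The regions differed in what the punches held. Summed CPM of 8 general neuron markers had medians of 7781 and 7565 in the NTS of WKY rats and SHRs, 11900 and 11130 in the CVLM, and 29330 and 24850 in the RVLM. Chat, which marks cholinergic motor neurons, had medians of 61.1, 18.5 and 243 CPM in NTS, CVLM and RVLM, whereas Dbh of noradrenergic and adrenergic neurons stood at 67.7, 85.0 and 9.55 and Pnmt of adrenergic neurons at 3.60, 41.8 and 19.65. Tlx3, which marks NTS neurons, was near 0 everywhere, with a median of at most 0.510 CPM.

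Kcnk2 and Hcn2 are shown by the bases just before their starts, because the report turns on these genes and because the base composition of promoters returns below as a property of whole libraries. Of the 8 members, only these had an entry in the RefSeq promoter table used, on the build GRCr8, whereas the counts were made on rn6. Capitals mark GC boxes, the letters GGGCGG or CCGCCC, searched on both strands with overlaps allowed, and 26% of 33469 windows of the same length, 150 bases, hold at least 1. Each sequence is written 5′ to 3′ on the strand of the gene. The starts of Kcnk2 are numbered by coordinate, so that on the minus strand the second lies upstream of the first.
Hcn2, chr7:10639458-10639607, minus strand: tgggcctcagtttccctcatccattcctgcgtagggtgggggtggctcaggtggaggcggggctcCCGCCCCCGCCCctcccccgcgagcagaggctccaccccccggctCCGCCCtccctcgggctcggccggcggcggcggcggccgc
Kcnk2, first start, chr13:103438643-103438792, minus strand: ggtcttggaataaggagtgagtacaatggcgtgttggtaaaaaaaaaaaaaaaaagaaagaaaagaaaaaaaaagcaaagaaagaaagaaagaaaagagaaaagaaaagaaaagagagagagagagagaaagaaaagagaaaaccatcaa
Kcnk2, second start, chr13:103494687-103494836, minus strand: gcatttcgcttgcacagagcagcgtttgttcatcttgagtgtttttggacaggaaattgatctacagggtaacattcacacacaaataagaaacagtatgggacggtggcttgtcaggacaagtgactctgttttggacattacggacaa
The window of Hcn2 was 78.7% G or C, at the 97.5 percentile of all windows, with 16 CG dinucleotides and 3 GC boxes. The windows of Kcnk2 were 30% and 43.3% G or C, below the median of 52.7%, with 1 and 4 CG dinucleotides and no GC box.

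The first comparison was between regions, within each strain and averaged over the ages. Punches of all regions came from the same rats, so the fit had a term for each rat. Kcnk2 and Hcn3 were highest in the NTS and lowest in the RVLM, Kcnk3 and Kcnk9 were highest in the RVLM, Kcnk1 was lowest in the NTS, and Kcnk10 was lowest in the RVLM. Of 48 tests, over 8 genes, 3 pairs of regions and both strains, 33 had an adjusted p under 0.05, the threshold used for a call. In most of these comparisons a large share of all genes differed as well. Between NTS and RVLM 62.2% of 14043 genes were called in WKY rats and 64.4% in SHRs, between NTS and CVLM 52.5% and 55.7%, and between CVLM and RVLM 39% and 44.8%. The members called were 6 and 7 of 8, 3 and 4 of 8, and 6 and 7 of 8, in the same order.

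**Figure D1:**
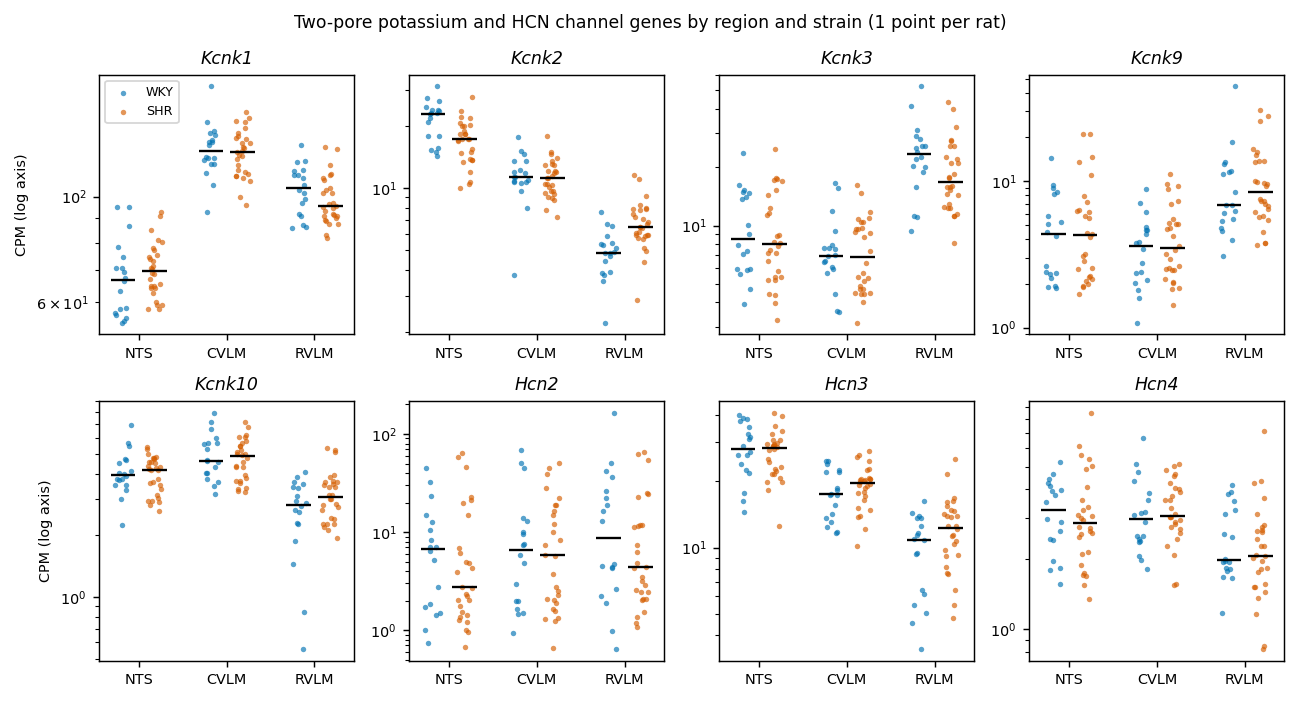
Levels of the 8 genes in CPM (log axis, different for each gene) by region, with 1 point per rat, 18 WKY rats in blue and 28 SHRs in orange, and a black line at the median. Kcnk2 and Hcn3 step down from NTS to RVLM, Kcnk3 and Kcnk9 stand highest in the RVLM, and the points of Hcn2 spread over about 2 decades in every region.

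Kcnk1 encodes TWIK-1, a weakly conducting K2P channel that is abundant in the brain, including in astrocytes. In WKY rats its lowest, median and highest values were 54.3, 66.9 and 95.2 CPM in the NTS, 92.8, 125 and 171 CPM in the CVLM and 86.0, 104 and 128 CPM in the RVLM. In SHRs they were 57.9, 69.7 and 92.7 CPM, 96.0, 124 and 151 CPM, and 81.8, 95.4 and 127 CPM. The order CVLM, RVLM, NTS held with every neighbor apart: the NTS was lower than the CVLM in 18 of 18 WKY rats and 28 of 28 SHRs, by 0.92 ± 0.06 and 0.81 ± 0.05 on the log2 scale (estimate ± SE; edgeR quasi-likelihood test, adjusted p = 6.64e-23 and 5.79e-26). The CVLM exceeded the RVLM by less, 0.29 ± 0.06 and 0.33 ± 0.05 (adjusted p = 3.59e-05 and 1.09e-08), in 15 of 18 and 24 of 28 rats. The oligodendrocyte markers were lower in the NTS than in the CVLM too, in 6 of 6 tested in each strain. Their summed medians were 25870 and 27040 CPM against 55150 and 48490 CPM. General neuron markers ran the same way, with summed medians of 7781 and 7565 CPM against 11900 and 11130 CPM. Astrocyte markers ran the other way, with 2270 and 2233 CPM against 1577 and 1619 CPM. The part of these cell types in the Kcnk1 result was not tested.

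Kcnk2 encodes TREK-1, a K2P channel opened by stretch, heat, arachidonic acid and volatile anesthetics. In WKY rats its lowest, median and highest values were 14.3, 23.0 and 31.2 CPM in the NTS, 3.80, 11.3 and 17.8 CPM in the CVLM and 2.22, 4.86 and 7.66 CPM in the RVLM. In SHRs the NTS gave 10.0, 17.3 and 27.7 CPM, the CVLM 7.27, 11.2 and 17.8 CPM and the RVLM 2.85, 6.48 and 11.6 CPM. The ranges of NTS and RVLM did not overlap in WKY rats and met in SHRs only at their edges, and the NTS was higher than the RVLM in all 18 WKY rats and all 28 SHRs. The log2 difference between NTS and RVLM was 2.13 ± 0.11 in WKY rats and 1.31 ± 0.09 in SHRs (adjusted p = 6.72e-29 and 1.01e-23). The CVLM lay between, 0.97 ± 0.11 and 0.57 ± 0.08 below the NTS and 1.17 ± 0.11 and 0.75 ± 0.09 above the RVLM, all of them called.

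Kcnk10 encodes TREK-2, of the same subfamily, and its pattern was flatter. Its medians were 3.93 and 4.18 CPM in the NTS of WKY rats and SHRs, 4.63 and 4.85 CPM in the CVLM and 2.83 and 3.08 CPM in the RVLM. The RVLM was lowest, by 0.62 ± 0.13 and 0.32 ± 0.10 against the NTS (adjusted p = 3.98e-05 and 0.00541) and by 0.87 ± 0.13 and 0.57 ± 0.10 against the CVLM (adjusted p = 7.9e-08 and 2.89e-06). The step from CVLM to NTS was called in SHRs, at -0.25 ± 0.10 (adjusted p = 0.0324), but not in WKY rats, at -0.24 ± 0.13 (adjusted p = 0.106), and whether this step differs between strains gave -0.01 ± 0.16 with an adjusted p of 1.

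Kcnk3 and Kcnk9 encode TASK-1 and TASK-3, K2P channels closed by extracellular acid, which can join into one channel. Kcnk3 in WKY rats had lowest, median and highest values of 3.93, 8.50 and 23.7 CPM in the NTS, 3.57, 6.97 and 16.6 CPM in the CVLM and 9.33, 23.4 and 52.4 CPM in the RVLM. In SHRs its medians were 8.00, 6.87 and 16.8 CPM. Both genes were higher in the RVLM than in the NTS, Kcnk3 by 1.25 ± 0.16 in WKY rats and 1.13 ± 0.12 in SHRs (adjusted p = 6.61e-11 and 8.05e-13) and Kcnk9 by 1.00 ± 0.23 and 1.05 ± 0.18 (adjusted p = 0.000154 and 6.36e-07). Kcnk9 had medians of 4.35 and 4.27 CPM in the NTS, 3.62 and 3.49 CPM in the CVLM and 6.89 and 8.43 CPM in the RVLM. Against the CVLM the RVLM was higher by 1.55 ± 0.16 and 1.36 ± 0.13 for Kcnk3 and by 1.31 ± 0.24 and 1.21 ± 0.19 for Kcnk9. NTS and CVLM were not told apart for either gene, with differences from 0.17 to 0.32 and adjusted p from 0.112 to 0.468. Within rats, Kcnk3 was higher in the RVLM than in the NTS in 18 of 18 WKY rats and 26 of 28 SHRs, and Kcnk9 in 16 of 18 and 23 of 28. Motor neuron markers moved the same way, with 5 of 5 tested lower in the NTS than in the RVLM in each strain, at a median log2 difference of -1.94 and -2.13, and summed CPM of 159 to 628 and 181 to 713 in the NTS against 718 to 2628 and 680 to 2591 in the RVLM. Of the 6 motor neuron markers Mnx1 was at 0 in every RVLM library of WKY rats. General neuron markers were lower in the NTS too, with summed medians of 7781 and 7565 CPM against 29330 and 24850 CPM. Noradrenergic and adrenergic markers went the other way, with summed medians of 293 and 252 CPM against 98.9 and 119 CPM. The part of these cell types in the levels of Kcnk3 and Kcnk9 was not tested. In bulk tissue fewer cells of a type and less RNA per cell cannot be told apart.

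Among the HCN genes, Hcn3, whose product conducts Ih with little response to cyclic AMP, followed the order of Kcnk2. Its lowest, median and highest values in WKY rats were 14.5, 28.1 and 40.1 CPM in the NTS, 11.6, 17.4 and 24.8 CPM in the CVLM and 3.46, 10.8 and 16.3 CPM in the RVLM. In SHRs its medians were 28.3, 19.7 and 12.3 CPM. Its NTS level topped that of the RVLM in every rat of both strains, by 1.52 ± 0.13 and 1.15 ± 0.10 (adjusted p = 6.72e-17 and 1.33e-16), and the CVLM stood 0.84 ± 0.13 and 0.69 ± 0.10 above the RVLM and 0.67 ± 0.13 and 0.45 ± 0.10 below the NTS, all called. Counts of Hcn3 were not whole in 23.9% of NTS libraries, 15.2% of CVLM and 8.7% of RVLM libraries, that is, some of its reads were shared out between genes before deposit.

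Hcn4, which encodes the slowest subunit and the main one of the cardiac pacemaker, had medians of 3.26 and 2.85 CPM in the NTS of WKY rats and SHRs, 2.99 and 3.08 CPM in the CVLM and 1.99 and 2.08 CPM in the RVLM. In SHRs the RVLM was lower than the NTS by 0.44 ± 0.12 (adjusted p = 0.00136) and lower than the CVLM by 0.53 ± 0.12 (adjusted p = 0.000216), and in WKY rats the estimates, 0.31 ± 0.16 and 0.36 ± 0.16, missed the threshold (adjusted p = 0.0775 and 0.0657). Hcn2, a subunit strongly shifted by cyclic AMP, gave no call between regions. Its differences ran from -0.86 ± 0.45 between NTS and RVLM in WKY rats (adjusted p = 0.0882) to -0.12 ± 0.36 between CVLM and RVLM in SHRs. Standard errors were 0.35 to 0.46 log2 units, so that even the difference of -0.86 was not called.

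The comparison of strains asked which channel genes differed between SHRs and WKY rats. Averaged over the ages with equal weight, Kcnk2 was lower in SHRs in the NTS and higher in SHRs in the RVLM, and no other of the 8 genes was called in any region. These 2 calls of 24 tests, which were also the only ones at an unadjusted p under 0.05, stand beside backgrounds of 11.2% of 13793 genes called for the NTS (5.51% lower in SHRs), 12.3% of 13408 for the CVLM and 10.8% of 13411 for the RVLM (5.84% higher). The share of members called, 1 of 8, 0 of 8 and 1 of 8, is near these backgrounds. The median log2 fold change over the 8 genes was -0.06, 0.00296 and 0.10 in NTS, CVLM and RVLM, beside 0.00975, -0.00295 and 0.00877 over all genes tested.

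**Figure D2:**
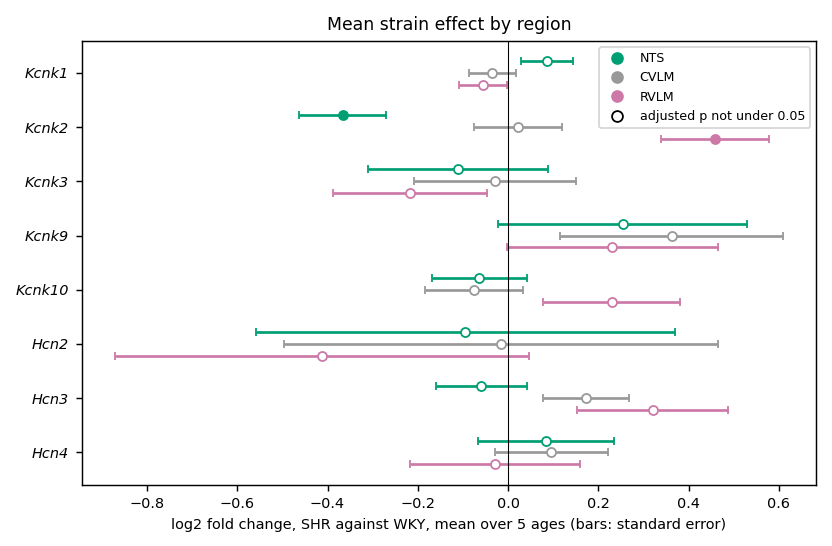
Log2 fold change of SHRs against WKY rats averaged over 5 ages, by gene and region, with the standard error as a bar and a filled point where the adjusted p is under 0.05. Kcnk2 lies at -0.37 in the NTS and at 0.46 in the RVLM, and all other points are open.

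In the NTS, Kcnk2 in WKY rats stood at 15.3, 24.7, 23.7, 21.9 and 14.3 CPM at 8 wk, at 20.8, 14.9, 24.0 and 31.2 CPM at 10 wk and at 23.2, 23.0 and 27.4 CPM at 12 wk. SHRs had 13.6, 13.3, 10.0, 14.7 and 11.9 CPM at 8 wk, 13.7, 17.3, 19.9, 22.2 and 21.99 CPM at 10 wk, and from 10.7 to 20.7 CPM, with a median of 16.0, at 12 wk. At 8 wk the highest SHR thus reached into the range of the WKY rats by less than 1 CPM, at 10 wk the strains overlapped, and at 12 wk all 6 SHRs lay below all 3 WKY rats, where 5.52% of genes tested had strains that did not overlap. At 16 wk WKY rats had 22.9, 23.8 and 17.8 CPM and SHRs 16.9 to 23.6 with a median of 18.7, and at 24 wk 17.8, 26.3 and 15.7 CPM stood against 10.4 to 27.7 with a median of 17.8. The strains overlapped at both of these ages.

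The NTS difference averaged over ages was -0.37 ± 0.10 on the log2 scale (adjusted p = 0.00711). By age it was -0.69 ± 0.20 at 8 wk, the only age called (adjusted p = 0.0363), -0.21 ± 0.21 at 10 wk, -0.62 ± 0.22 at 12 wk (adjusted p = 0.136), -0.17 ± 0.22 at 16 wk and -0.14 ± 0.22 at 24 wk. Of the 8 wk libraries, 3 of 5 from WKY rats and 0 of 5 from SHRs have a name that ends in the number 2, and with that number as a term the 8 wk difference was -0.51 and not called (adjusted p = 0.336). The estimate was negative at all 5 ages, and whether it varied with age was not called. Markers of tissue next to the NTS moved with strain. Choroid plexus markers were lower in SHRs in 2 of 3 tested (Ttr, -6.73, adjusted p = 9.45e-05; Folr1, -1.28, adjusted p = 0.0202), with summed CPM from 1.25 to 4340 in WKY rats and from 1.24 to 6.88 in SHRs, and of the ependymal markers 1 of 2 tested was lower, with sums of 0.857 to 34.6 and 0.207 to 9.40 CPM. The high sums came from 5 WKY libraries, each above 50 CPM, at 4340, 1771, 755.5, 225.5 and 94.1 CPM, in which Kcnk2 stood at 23.0, 14.3, 27.4, 24.7 and 31.2 CPM. Without these 5 libraries, a choice made after the data were seen, the NTS difference was -0.33 with an adjusted p of 0.0542, over the threshold. Leaving out any 1 of the 46 libraries kept it called, with adjusted p from 0.00187 to 0.0268.

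In the RVLM, Kcnk2 in WKY rats stood at 4.68, 3.54, 3.77, 4.90 and 4.42 CPM at 8 wk, 5.86, 5.13, 4.83 and 5.27 CPM at 10 wk and 5.39, 3.93 and 4.81 CPM at 12 wk. SHRs had 2.85, 6.87, 5.93, 8.26 and 5.13 CPM at 8 wk, 6.42, 6.47, 7.91, 7.23 and 8.01 CPM at 10 wk, and 5.66 to 9.12 CPM with a median of 7.48 at 12 wk. At 8 wk 4 of 5 SHRs were above all WKY rats and the fifth was below them, whereas at 10 and 12 wk no SHR fell to the level of any WKY rat, where 5.99% and 4.19% of genes tested separated the strains. At 16 wk WKY rats had 7.66, 6.65 and 5.36 CPM against 4.92 to 11.6 in SHRs with a median of 6.26, and at 24 wk 2.22, 6.53 and 3.85 CPM against 4.37 to 11.1 with a median of 5.93. The strains overlapped at these later ages.

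The RVLM difference averaged over ages was 0.46 ± 0.12 (adjusted p = 0.0062). By age it was 0.43 ± 0.25, 0.45 ± 0.25, 0.64 ± 0.28, 0.08 ± 0.27 and 0.68 ± 0.28 in the order of the ages, positive at all 5 and called at none, with the lowest adjusted p, 0.244, at 8 wk. Without WKY replicate 2 of 24 wk the difference at that age was 1.16 (adjusted p = 0.0454). Of the markers in the RVLM, 0 of 8 of general neurons, 0 of 5 of motor neurons and 0 of 5 of noradrenergic and adrenergic neurons were called between strains, and the median log2 fold change of the last was 0.57. Of the glial lists 1 of 6 astrocyte markers was higher in SHRs and 3 of 6 oligodendrocyte markers were lower. Summed noradrenergic and adrenergic markers ran from 26.4 to 184 CPM in WKY rats and from 52.2 to 336 CPM in SHRs, and their part in the Kcnk2 result was not tested. The call held without any 1 library, with adjusted p from 0.000761 to 0.0186.

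In the CVLM, Kcnk2 averaged 13.1 ± 1.18 CPM in WKY rats and 10.1 ± 2.11 CPM in SHRs at 8 wk (SD, n = 5 and 5), 13.8 ± 3.24 and 13.2 ± 3.37 CPM at 10 wk (n = 4 and 5), 8.37 ± 3.96 and 10.4 ± 1.70 CPM at 12 wk, 9.67 ± 1.64 and 11.6 ± 1.84 CPM at 16 wk and 11.3 ± 0.801 and 11.4 ± 2.30 CPM at 24 wk (n = 3 and 6 at each). A single WKY library of 12 wk was low, at 3.80 CPM, below every other CVLM library. The difference between strains averaged over ages was 0.02 ± 0.10 (adjusted p = 0.946).

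**Figure D3:**
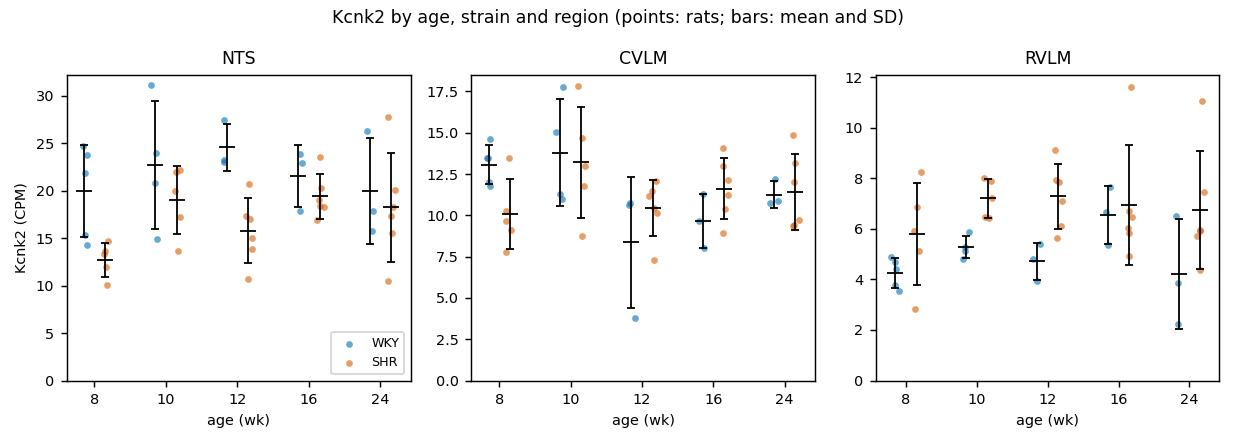
Kcnk2 in CPM by age in the NTS, CVLM and RVLM, with 1 point per rat, WKY rats in blue and SHRs in orange, and the mean with the SD of each group in black (n = 3 to 6). SHRs lie mostly below WKY rats in the NTS and mostly above them in the RVLM, with no overlap at 12 wk in either region.

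Whether the strain effect differed between regions was tested in the fit over all libraries. For Kcnk2 the strain effect in the NTS minus that in the RVLM was -0.82 ± 0.14 on the log2 scale, with an adjusted p of 5.63e-05, in a comparison in which 1.82% of 14043 genes were called and 1.32% in this direction. Without the 5 rats whose NTS library held choroid plexus RNA it was -0.73 (adjusted p = 0.00474). The CVLM stood between. Its strain effect differed by -0.40 ± 0.13 from that in the NTS, taken as NTS minus CVLM (adjusted p = 0.254, where 0.449% of genes were called), and by -0.42 ± 0.14 from that in the RVLM, taken as CVLM minus RVLM (adjusted p = 0.383, where 0.32% were called). Of 24 such tests over the 8 genes, 1 was called and 4 had an unadjusted p under 0.05, the fourth being Hcn3 between NTS and RVLM at -0.37 ± 0.17 (adjusted p = 0.343). In relative terms, the fall of Kcnk2 from NTS to RVLM was thus smaller in SHRs, by 0.82 of the 2.13 log2 units seen in WKY rats.

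Strain effects at single ages were tested next. Of 120 tests over 8 genes, 3 regions and 5 ages, 2 were called and 15 had an unadjusted p under 0.05. Over all genes, in the order of the ages, 5.79%, 4.44%, 3.1%, 1.74% and 2.46% were called for the NTS, 7.64%, 3.18%, 2.62%, 2.27% and 7.13% for the CVLM, and 9.78%, 2.3%, 1.7%, 1.65% and 2.24% for the RVLM. Both calls fell at 8 wk in the NTS, where Kcnk2 and Kcnk3 were lower in SHRs, against 5.79% of 13793 genes called there and 3.21% called lower. Of the 8 genes 7 had a negative estimate at that age and region, and their median was -0.70, beside -0.03 over all genes tested.

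Kcnk3 in the NTS at 8 wk stood at 5.87, 23.7, 14.9, 13.8 and 5.62 CPM in WKY rats and at 4.42, 5.23, 3.23, 5.21 and 5.79 CPM in SHRs. In 3 WKY libraries the level was more than 2-fold above that of every SHR, and the other two were level with the highest SHR. The log2 fold change was -1.46 ± 0.43 (adjusted p = 0.0361), or -1.34 and not called with the number in the library's name as a term (adjusted p = 0.164). Neither call held without 1 of 7 of the 10 libraries, WKY replicates 2, 3 and 4 and SHR replicates 1, 2, 3 and 5, with adjusted p of up to 0.126 for Kcnk2 and 0.111 for Kcnk3. Hcn2 was spread wider in the same libraries, at 1.85, 23.3, 10.6, 32.3 and 5.15 CPM in WKY rats and 1.35, 3.87, 0.669, 1.53 and 2.73 CPM in SHRs, a log2 fold change of -2.88 ± 1.01 that missed the threshold (adjusted p = 0.0774). Kcnk9 gave -1.58 ± 0.58 (adjusted p = 0.089), Hcn3 -0.63 ± 0.21 (adjusted p = 0.0643) and Hcn4 -0.70 ± 0.31 (adjusted p = 0.159). DESeq2 called these first 3, Hcn2 (adjusted p = 0.0258), Kcnk9 (0.0472) and Hcn3 (0.0485), and so did edgeR without WKY replicate 1 (0.032, 0.0286 and 0.0236) and, for Hcn2, without SHR replicate 6 of 12 wk (0.0494). The exception in direction was Kcnk1, with means of 69.9 ± 11.2 CPM in WKY rats and 77.1 ± 7.84 CPM in SHRs (SD, n = 5 and 5).

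At 10 wk the NTS estimates of Kcnk3, Kcnk9, Hcn2 and Hcn4 were positive. Kcnk9 averaged 4.40 ± 1.52 CPM in WKY rats and 11.9 ± 6.96 CPM in SHRs (SD, n = 4 and 5), with a log2 fold change of 1.48 ± 0.58 (adjusted p = 0.143). Whether the strain effect varied with age was called for 0 of 24 pairs of gene and region by edgeR. At an unadjusted p under 0.05 stood 4 of them, Kcnk9, Kcnk1, Kcnk3 and Hcn3 in the NTS, with adjusted p from 0.378 to 0.39. Over all genes the edgeR test called 0.0145%, 0.0224% and 0.00746% in NTS, CVLM and RVLM, and the DESeq2 likelihood ratio test called 0 of the 12 pairs to which it gave an adjusted p.

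**Figure D4:**
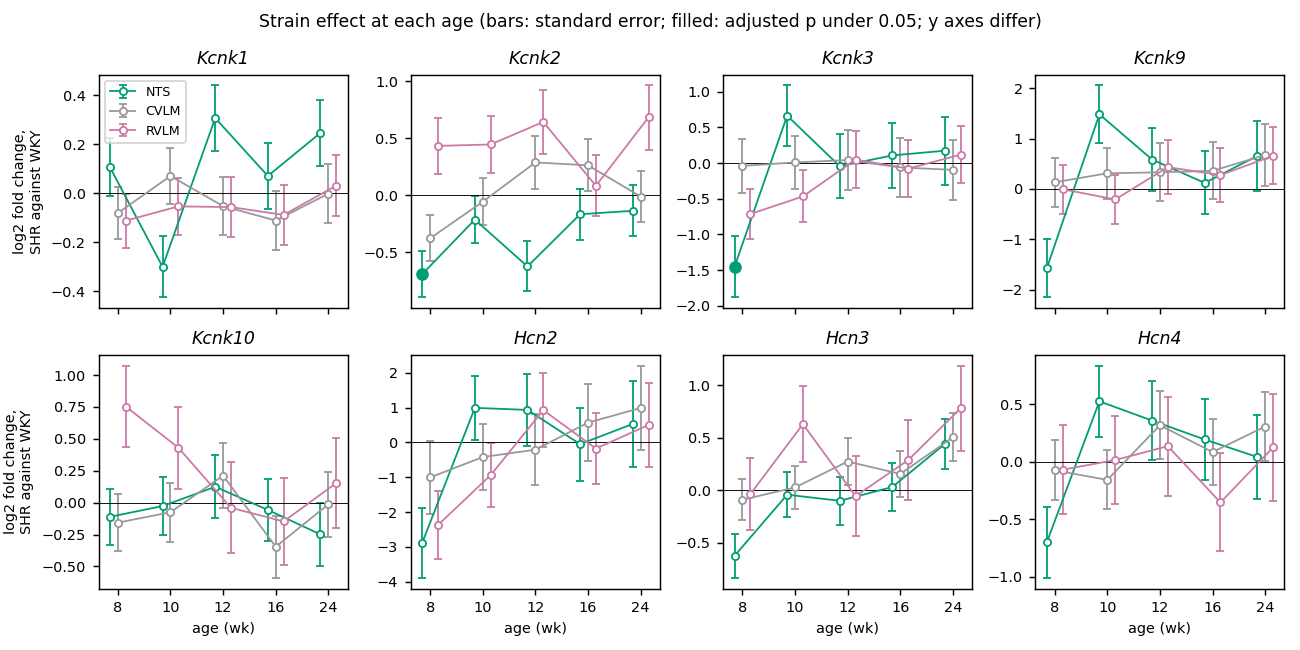
Log2 fold change of SHRs against WKY rats at each age for the 8 genes in the NTS (green), CVLM (gray) and RVLM (pink), with the standard error as a bar, filled points where the adjusted p is under 0.05, and a vertical axis of its own for each gene. Filled points are those of Kcnk2 and Kcnk3 at 8 wk for the NTS, where 7 of 8 genes lie below 0 at that age.

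In the RVLM at 8 wk, Hcn2 stood at 4.68, 36.5, 50.5, 12.8 and 0.975 CPM in WKY rats and 1.37, 2.55, 2.46, 11.1 and 2.86 CPM in SHRs, a log2 fold change of -2.37 ± 0.97 (adjusted p = 0.107). A single WKY library, replicate 5, was the lowest of all 10. Kcnk10 in these libraries had 3.43, 3.11, 0.558, 1.87 and 0.845 CPM in WKY rats and 2.74, 2.65, 3.69, 3.86 and 3.65 CPM in SHRs, with 0.75 ± 0.32 (adjusted p = 0.119), and the lowest of these values rests on 4 counts. Without WKY replicate 1 the Kcnk10 difference was 1.04 (adjusted p = 0.0286). Kcnk3 averaged 25.7 ± 11.2 CPM in WKY rats and 15.7 ± 4.33 CPM in SHRs (SD, n = 5 and 5), at -0.71 ± 0.36 (adjusted p = 0.183). In the CVLM no member was called at any age. The strains did not overlap there for Hcn3 at 12 wk, where WKY rats had 12.4 to 17.4 CPM and SHRs 17.7 to 20.6 CPM, in a comparison in which 5.28% of genes separated the strains.

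Levels at 24 wk were compared with those at 8 wk within each strain. Of 48 tests 1 was called and 8 had an unadjusted p under 0.05. Over all genes, WKY rats and SHRs had 0.464% and 0.232% called for the NTS, 13.7% and 0.649% for the CVLM and 0.179% and 0.358% for the RVLM. Hcn3 in the CVLM of WKY rats was lower at 24 wk, with 11.6 to 13.04 CPM in 3 rats against 13.6 to 24.8 CPM in 5, a log2 fold change of -0.68 ± 0.23 (adjusted p = 0.0474). The call was lost without any 1 of 6 of these 8 libraries, WKY replicates 2, 4 and 5 of 8 wk and all 3 of 24 wk, with adjusted p of up to 0.132, without the 2 libraries of uncertain age (0.0821), and with the number in the library's name (0.229) or the replicate number as a term (replicate block, 0.0717). It held in 24 of the 46 fits that left out 1 library. With 4.51% of genes called lower there, 1 member of 8 does not stand apart from the background. In the NTS of WKY rats 5 genes had a negative log2 fold change at an unadjusted p under 0.05, Hcn2 -3.09 ± 1.26, Kcnk9 -1.98 ± 0.71, Kcnk3 -1.05 ± 0.50, Hcn4 -0.98 ± 0.37 and Hcn3 -0.69 ± 0.25, with adjusted p from 0.0946 to 0.202. DESeq2 called Hcn2 (adjusted p = 0.0432) and Kcnk9 (0.0326), and edgeR called Kcnk9 (0.0329) and Hcn3 (0.0362) without WKY replicate 1 of 8 wk and Hcn3 (0.018) without WKY replicate 2 of 24 wk. In SHRs the median over the 8 genes was 0.29 in the NTS, against -0.84 in WKY rats.

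Hcn2 varied more between rats of 1 group than nearly all other genes. Its lowest and highest values were 0.669 and 64.4 CPM for the NTS, 0.653 and 68.5 CPM for the CVLM and 0.641 and 165 CPM for the RVLM, which are ratios of 96.3, 105 and 257. Its pooled SD within groups on the log2 scale, at a pseudocount of 0.5 CPM, was 1.39, 1.59 and 1.52, at the 99.6, 99.8 and 99.7 percentile of all genes tested. Next came Kcnk9, with 0.83, 0.71 and 0.73, at the 96.8, 95.6 and 95.9 percentile, and Kcnk3, with 0.63, 0.57 and 0.57. Kcnk1 was steady, with 0.18, 0.17 and 0.17, at the 16.0, 18.3 and 7.67 percentile, against a median over all genes of 0.29, 0.28 and 0.32.

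Levels of Hcn2 in the NTS rose with those in the other regions of the same rats. Over the 46 rats its log2 level in the NTS had a correlation of 0.714 with that in the CVLM and 0.667 with that in the RVLM. CVLM and RVLM gave 0.29. These correlations are a description over punches that share an animal. Group means were not subtracted, so age, strain and the number in the library's name enter them. For Kcnk3 these were 0.624, 0.553 and 0.158, for Kcnk9 0.469, 0.530 and 0.194, and for Kcnk1 0.00853, 0.212 and -0.0656. Its highest group means were at 10 wk, with 16.4 ± 19.2 CPM in WKY rats and 31.8 ± 23.5 CPM in SHRs in the NTS and 62.5 ± 69.3 and 32.6 ± 30.1 CPM in the RVLM (SD, n = 4 and 5). All rats of 10 wk carry the number 2 at the end of the library's name, as do 3 of 5 WKY rats of 8 wk and 1 SHR each at 12 and 24 wk, and what this number stands for was not given in the sources used here, so that at 10 wk age and number cannot be told apart.

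The level of Hcn2 moved with a property of the whole library. For each library a promoter GC index was computed as the median log2 deviation of genes whose promoter was among the 10% highest in GC content, at least 72.7%, minus that of genes among the 10% lowest, at most 48.7% in the NTS and 49% in the others, with the 8 members left out. The index used the 73.8% to 74% of tested genes that have a promoter entry, which is under 80%, so it is void as a check of GC over all genes. It is used below only as a value of each library, computed from the expression of other genes in that library. A check of the members' own promoters is void as well, with an entry for 2 of 8. NTS libraries had an index of -0.513 to 0.423, CVLM libraries -0.547 to 0.303 and RVLM libraries -0.491 to 0.451.

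Over the 46 rats of a region, log2 levels of Hcn2 had a Pearson correlation with the index of 0.887, 0.855 and 0.865 in NTS, CVLM and RVLM (Spearman 0.912, 0.889 and 0.887; permutation test, p = 1e-05 for each, the smallest 100000 permutations can give, two-sided, 1.85e-05 and, for Spearman, 2.18e-05 after adjustment over 24 relations). Leaving out the 2 libraries farthest from the median index gave 0.895, 0.862 and 0.842. Within the 32 libraries with number 1 the correlations were 0.855, 0.850 and 0.816, within the 14 with number 2 they were 0.885, 0.886 and 0.916, and after subtracting group means 0.866, 0.826 and 0.847. Of all genes tested, 17.2%, 15.5% and 15.9% had a correlation over 0.5 with the index, and Hcn2 stood at the 98.7, 96.4 and 99.1 percentile.

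**Figure D5:**
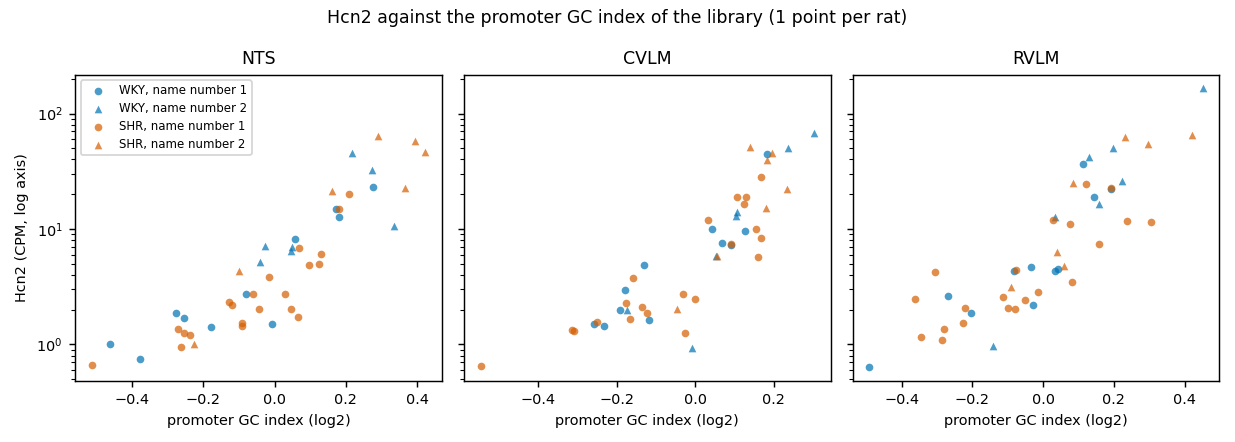
Hcn2 in CPM (log axis) against the promoter GC index of the library, a log2 difference, in the 3 regions, with 1 point per rat, WKY rats in blue, SHRs in orange, and circles and triangles for the numbers 1 and 2 in the library's name. Levels climb with the index in both strains and for both numbers, with correlations of 0.887, 0.855 and 0.865.

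The same relation held for Kcnk9, with 0.906, 0.692 and 0.825 in NTS, CVLM and RVLM (Spearman 0.928, 0.730 and 0.816), for Kcnk3, with 0.843, 0.772 and 0.819 (0.818, 0.842 and 0.860), and for Hcn4, with 0.749, 0.632 and 0.562 (0.747, 0.665 and 0.53), each with an adjusted permutation p of at most 0.000377 for both coefficients. Hcn3 gave 0.684, 0.672 and 0.398, but within the 14 libraries of number 2 it gave 0.0724, 0.453 and 0.0593. Kcnk2 gave 0.336, 0.266 and 0.343 (Spearman 0.357, 0.351 and 0.274), with -0.116, 0.0627 and -0.0659 within number 2. The adjusted permutation p of its Pearson correlation was 0.0326, 0.0972 and 0.029, and that of its Spearman correlation 0.0238, 0.0256 and 0.0868. Kcnk1 and Kcnk10 gave -0.239 to 0.103, with adjusted permutation p of at least 0.137 for Pearson and 0.0932 for Spearman, but within number 2 Kcnk1 gave -0.712, -0.145 and -0.686 and Kcnk10 0.346, 0.0102 and 0.145. At 8 wk in the NTS, where 7 of 8 genes had negative estimates, the index averaged 0.113 in WKY rats and -0.173 in SHRs. Its ranges there, -0.276 to 0.335 in WKY rats and -0.513 to 0.0284 in SHRs, overlapped. At that age and region strain and index can thus be told apart only in part, and what the index stands for was not tested. With the index as a term in the fit, chosen after the data were seen, the strain effect there was -0.48 ± 0.20 for Kcnk2 (adjusted p = 0.25), -0.51 ± 0.27 for Kcnk3 (0.389), -0.52 ± 0.53 for Hcn2 (0.716) and -0.07 ± 0.30 for Kcnk9 (0.953). In that fit Kcnk2 was instead called at 12 wk in the NTS, at -0.71 ± 0.20 (adjusted p = 0.0444). At 10 wk the NTS estimate of Hcn2 turned from 0.99 to -0.10 and that of Kcnk9 fell from 1.48 to 0.60. Of the NTS differences between 24 and 8 wk in WKY rats, Hcn2 turned to 0.21 ± 0.66 and Kcnk3 to 0.15 ± 0.31, and Kcnk9 stood at -0.03 ± 0.35, Hcn4 at -0.26 ± 0.31 and Hcn3 at -0.25 ± 0.19. Averaged over ages, Kcnk2 stayed called with the index as a term, at -0.38 ± 0.09 in the NTS (adjusted p = 0.00168) and 0.47 ± 0.11 in the RVLM (0.00205).

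Of the other two-pore channel genes, 9 were in the tables and 4 passed the filter in at least 1 region, namely Kcnk4, Kcnk12, Kcnk13 and Kcnk15. Kcnk5, Kcnk6, Kcnk7, Kcnk16 and Kcnk18 stayed at or below 1.32 CPM in every library. Between strains 1 of 50 edgeR tests at single ages was called and 0 of 10 averaged over ages, with 5 and 2 at an unadjusted p under 0.05. Kcnk15, which encodes TASK-5, was called higher in SHRs in the RVLM at 8 wk (2.65 ± 0.74, adjusted p = 0.0197, where 9.78% of genes were called), and this rests on 1 library with 134 counts or 13.2 CPM, whereas the other SHRs had 0.331 to 0.691 CPM and WKY rats 0.228 to 0.720 CPM.

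Between regions 12 of 24 tests of these 4 genes were called. Kcnk13, which encodes THIK-1, the leak channel of microglia, exceeded its RVLM level in the NTS by 0.60 ± 0.15 in WKY rats and 0.37 ± 0.12 in SHRs, and Kcnk4, which encodes TRAAK, was lower there by 0.52 ± 0.11 and 0.45 ± 0.09.

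Of 22 listed genes for proteins that bind or regulate these channels, 20 were in the tables and 19 were tested. Between strains 3 of 54 tests averaged over ages and 9 of 270 at single ages were called, and Kcne2 made up all 3 of the first and 8 of the second. Kcne2 encodes a small accessory subunit reported to join HCN channels and others. Its lowest, median and highest values in the RVLM were 3.07, 5.03 and 8.06 CPM in WKY rats and 0.560, 1.36 and 2.62 CPM in SHRs. The log2 fold change was -1.84 ± 0.15 in the RVLM (adjusted p = 1.59e-13), -1.40 ± 0.19 in the NTS (adjusted p = 2.82e-07) and -0.67 ± 0.15 in the CVLM (adjusted p = 0.000961). Kcne2 is also abundant in choroid plexus, whose markers were high in the 5 NTS libraries named above. In the CVLM their sum was at most 194.6 CPM in WKY rats and 6.07 CPM in SHRs, with medians of 1.19 and 2.315 CPM. In the RVLM it was at most 3.33 CPM in WKY rats and 2.91 CPM in SHRs. The part of choroid plexus in the Kcne2 result was not tested. The remaining call was Psd, an exchange factor for Arf6, higher in SHRs in the NTS at 10 wk (1.03 ± 0.29, adjusted p = 0.0302, where 4.44% of genes were called). Between regions 56 of 114 tests were called, in comparisons in which 39% to 64.4% of all genes were called. Pex5l, which encodes TRIP8b, the auxiliary subunit that sets HCN trafficking, was lower in the NTS than in the RVLM by 0.86 ± 0.08 in WKY rats and 0.59 ± 0.06 in SHRs (adjusted p = 1.55e-15 and 3.67e-13).

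Genes with the most similar pattern were taken as those with the highest Pearson correlation of log2 group means over the 30 groups of region, strain and age, among 13116 genes tested in all regions. For Kcnk2 these were Zcchc12 at 0.969, Tspyl2 at 0.965 and Scn3b at 0.965, for Hcn3 Dapk1 at 0.967, Ankrd10 at 0.964 and Hoxd3 at 0.957, for Kcnk3 Tmem132e at 0.962, Adra1d at 0.958 and Ret at 0.955, and for Kcnk1 Pak1 at 0.97. Hcn2 was closest to Arl8a at 0.981, Prkaca at 0.977 and Agfg1 at 0.973, Kcnk9 to Ppm1h at 0.948 and Kcnk10 to Rasgrf1 at 0.911. The groups share rats across regions and libraries across genes, so these values are a description.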

How the data were processed

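Total RNA of the 3 punched regions was sequenced, 1 library per region of each of 46 rats. The authors mapped paired reads to rn6 with STAR inside RSEM and deposited expected counts per gene for each region, which were rounded here to whole numbers (5.02%, 4.95% and 4.88% of the NTS, CVLM and RVLM values were not whole). The methods name a batch adjustment with ComBat_seq, and whether the tables include it is not given in the sources used here. Samples were grouped by region, strain and age as labelled.

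Genes with a maximum regularized log2 value of at least 3.5 in a region were kept (13793, 13408 and 13411). Within a region, 10 groups were fitted with the quasi-likelihood test of edgeR 4.0.16 in R 4.3.3 with TMM and robust dispersion, adjusted by Benjamini-Hochberg over all genes kept. Regions were compared over 14043 genes with a term per rat. A call is an adjusted p under 0.05. DESeq2 1.42.0, limma 3.58.1, other filters and scalings, and leaving out each library were alternatives, and the fits were tested on simulated data. Log2 levels used a pseudocount of 0.5 CPM. Precision is limited by counts of single libraries and by 3 to 6 rats per group. The p-values of the fits within a region measure the spread between rats of a group. Those of the region comparisons, with a term per rat, measure the spread within rats. The permutation test shuffled the 46 libraries of a region without regard to strain or age.

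The 8 members were named by symbol and shown in every comparison. The other family genes, the partners and the cell type markers came from fixed lists, and genes of like pattern were those with the highest correlation. Members and lists were chosen with earlier results of these data known. Transcript lengths were not used here. Some genes of the lists are not reported here.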

Additional observations from a re-analysis of the deposited data

Results flagged for a closer look

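The strain effect on Kcnk2 differed between regions, by -0.82 on the log2 scale for the NTS minus the RVLM in the test of that difference.

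In groups of 4 to 6 rats, the highest or lowest library was checked for a gap that was large against the range of its group (Dixon's criterion). Of 168 groups of a gene, region, strain and age, 14 had one. The criterion gives about 1 in 20 for independent groups of normally distributed values. Here CPM were not logged and groups share libraries and rats, so the count cannot be judged against that rate. Hcn2 made up 6 of the 14, always with a high library. In the NTS these stood at 45.3 CPM in WKY rats of 10 wk (next 7.08), and in SHRs at 57.9 CPM at 12 wk (next 19.98), 14.9 CPM at 16 wk (next 6.05) and 6.80 CPM at 24 wk (next 2.71). In SHRs of 8 wk they stood at 8.32 CPM in the CVLM (next 2.76) and 11.1 CPM in the RVLM (next 2.86).

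Kcnk3 was high at 9.54 CPM in the same CVLM library of SHRs of 8 wk (next 5.14) and at 52.4 CPM in an RVLM library of WKY rats of 10 wk (next 29.2). Kcnk1 stood at 171 CPM in the CVLM of a WKY rat of 10 wk (next 121) and at 91.2 CPM in the NTS of an SHR of 24 wk (next 71.4). Kcnk2 reached 11.6 CPM in the RVLM of an SHR of 16 wk (next 6.71), and Hcn4 4.33 CPM in the CVLM of a WKY rat of 8 wk (next 2.89). Low libraries were those of Hcn3 in the NTS of an SHR of 10 wk, at 21.5 CPM (next 28.8), and of Kcnk10 in the NTS of an SHR of 16 wk, at 3.04 CPM (next 4.35).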

How the results depend on the processing

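The 33 calls between regions and the Kcnk2 call between NTS and RVLM strain effects kept their direction and their side of the threshold in all 7 alternatives run, among them limma with the animal as a random effect and no replicate block. Strain calls at single ages numbered 2, but 5 with DESeq2, 1 with the promoter GC index as a term (Kcnk2 in the NTS at 12 wk, not among the 2), and 0 with no filter other than 1 count, with the number in the library's name as a term, without the number 2 libraries outside 10 wk, with each age fitted on its own, or without the 5 NTS libraries with choroid plexus RNA. Leaving out 1 library gave 0 to 6. Mean strain calls numbered 2 in every alternative and without any 1 library, except 1 without those 5 NTS libraries. The 24 wk against 8 wk comparison gave 1 call, 3 with DESeq2, 0 to 3 without 1 library, and 0 with no filter, with the number as a term, without the number 2 libraries, with the index as a term, or without the 2 libraries of uncertain age. The promoter GC index and the choroid plexus alternatives were chosen after the data were seen, and the causes of these changes were not tested. Replicate numbers were not used to pair the strains in the main fits. Same-numbered rats had correlated deviations over 0.1 in 12, 13 and 7 of 18 pairs in NTS, CVLM and RVLM, with median correlations of 0.223, 0.18 and 0.066. With the replicate block the calls numbered 2 at single ages, 2 for the mean and 0 for 24 wk against 8 wk. Counts of 4 to 9 in the lowest libraries of Kcnk10, Hcn2 and Hcn4 limit these genes most.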
